A study of Mus musculus with 23 samples.

Results

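The genes described here are the antioxidant and glutathione genes of the mouse hippocampus, taken by their symbols: glutathione transferases, glutathione peroxidases, peroxiredoxins, superoxide dismutases, the thioredoxin and glutaredoxin families, and Cat, Hmox1, Hmox2, Nqo1, Gclc, Gclm, Gss, Gsr, Mgst1, Nfe2l2 and Mt3. The array held 50 such genes of 8251 with a probe set of their own, each represented by the probe set of highest mean signal. Transcripts came from whole hippocampi of 14 male mice aged 15 months and 9 aged 2 months, all of the strain C57BL/6JNIA, with 1 array per mouse, and the comparison asks which of them differ between middle-aged and young animals. Both ages had gone through Morris water maze training, so no untrained mice stand behind either group. No gene was altered and no drug was given to either group, as far as the labels say. Values are MAS5 signals on a linear scale, MAS5 being the Affymetrix algorithm that turns the probes of a set into 1 signal.

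As background, superoxide dismutases convert superoxide to hydrogen peroxide, and catalase, glutathione peroxidases and peroxiredoxins remove the peroxide. Glutathione peroxidases and transferases spend glutathione, a small thiol that glutamate-cysteine ligase and glutathione synthetase make and glutathione reductase recycles, while peroxiredoxins are recharged by thioredoxin. NRF2, encoded by Nfe2l2, switches on many of these genes through antioxidant response elements, and in the brain astrocytes hold much of the glutathione and export precursors of it to neurons.

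The 4 members with an unadjusted p under 0.05 between the ages were Txnip, Mgst1, Cat and Gclm. Their promoters are shown because the regulation of these genes by sugar (Txnip) and by NRF2 (Gclm) is known to run through short sites near the start. The sequences are the 250 bases before the transcription start in RefSeq's GRCm38.p6 table, 5′ to 3′ on the strand of the gene. Capitals mark matches, on either strand, to 1 of 2 motifs. The first is a direct repeat of the carbohydrate response type (CACGNG followed, after 5 bases, by CACGNG again), and other forms of this element were not searched. The second is TGACNNNGC, the core of an antioxidant response element. Txnip is at chr3:96557707-96557956 on the + strand, Mgst1 at chr6:138140277-138140526 (+), Gclm at chr3:122245307-122245556 (+) and Cat at chr2:103485154-103485403 (-).
Txnip: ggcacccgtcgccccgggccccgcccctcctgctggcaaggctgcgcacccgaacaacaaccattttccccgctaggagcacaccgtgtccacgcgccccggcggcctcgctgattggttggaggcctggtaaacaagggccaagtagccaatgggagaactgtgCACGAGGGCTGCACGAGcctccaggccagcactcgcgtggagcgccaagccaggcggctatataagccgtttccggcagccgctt
Mgst1: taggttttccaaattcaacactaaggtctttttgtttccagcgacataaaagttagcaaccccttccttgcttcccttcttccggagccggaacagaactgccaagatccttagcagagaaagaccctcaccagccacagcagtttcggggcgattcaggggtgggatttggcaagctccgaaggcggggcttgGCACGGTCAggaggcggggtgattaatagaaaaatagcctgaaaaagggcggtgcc
Gclm: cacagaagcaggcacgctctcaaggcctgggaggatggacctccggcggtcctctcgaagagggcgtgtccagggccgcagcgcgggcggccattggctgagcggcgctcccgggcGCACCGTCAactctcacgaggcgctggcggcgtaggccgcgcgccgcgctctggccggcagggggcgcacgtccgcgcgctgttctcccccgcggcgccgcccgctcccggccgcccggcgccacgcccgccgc
Cat: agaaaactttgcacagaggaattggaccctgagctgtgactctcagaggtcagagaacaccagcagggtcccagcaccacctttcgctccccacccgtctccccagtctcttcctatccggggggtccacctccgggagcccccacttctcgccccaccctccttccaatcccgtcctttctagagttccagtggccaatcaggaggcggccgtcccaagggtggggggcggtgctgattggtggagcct

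The Txnip window held 1 carbohydrate-type match, between 85 and 69 bases before the start. This exact repeat was present in 15 of 32851 windows of this length (0.0457%), a share that does not cover other forms of the element. The pattern searched has the form of the Txnip match itself, CACGAG repeated after 5 bases. The match is therefore no test, and the share is no measure of how rare such elements are. The matches of Mgst1 and Gclm to TGACNNNGC lay on the opposite strand, between 56 and 48 bases and between 134 and 126 bases before the start, and a second listed start of Mgst1 had none. The Cat window matched neither motif. Of 42 members with a window in the table, 8 (19%) held TGACNNNGC in at least 1 window (Gclm, Gsta3, Gstm5, Mgst1, Nfe2l2, Sod1, Txndc5 and Txnrd1), beside 3112 of 27025 genes in all (11.5%). A match describes letters in a window and says nothing of whether a factor binds there.

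None of the antioxidant and glutathione genes passed the test between the ages. Of the 50 genes 44 were bright enough to be tested, and of these 0 rose and 0 fell at 15 months in limma at a false discovery rate of 0.05. Of all 7453 probe sets tested 0.376% were called, 0.335% as higher and 0.0403% as lower. At an unadjusted p under 0.05 there were 4 members, or 9.09%, of which Txnip and Mgst1 were higher and Cat and Gclm lower at 15 months, beside 12.4% of all probe sets tested (5.89% higher and 6.51% lower). The exact Mann-Whitney test likewise called 0 and had 4 at an unadjusted p under 0.05. Of the 44, 21 had log2 differences above 0 and 23 below, with a median of 0.00, beside 45% above 0 and a median of -0.02 over all probe sets tested. The members' median absolute log2 difference was 0.08, against 0.09 over all probe sets. For 38 of the 44 the log2 difference was under 0.15 in size, and for 40 the 95% interval lay within 0.5 on the log2 scale to either side of 0. In 0 of the 44 did the signals of the ages not overlap, beside 0.0537% of all probe sets. Differences are on the scale of log2(signal + 16), 15 months minus 2 months, which understates those of dim genes.

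**Figure D1:**
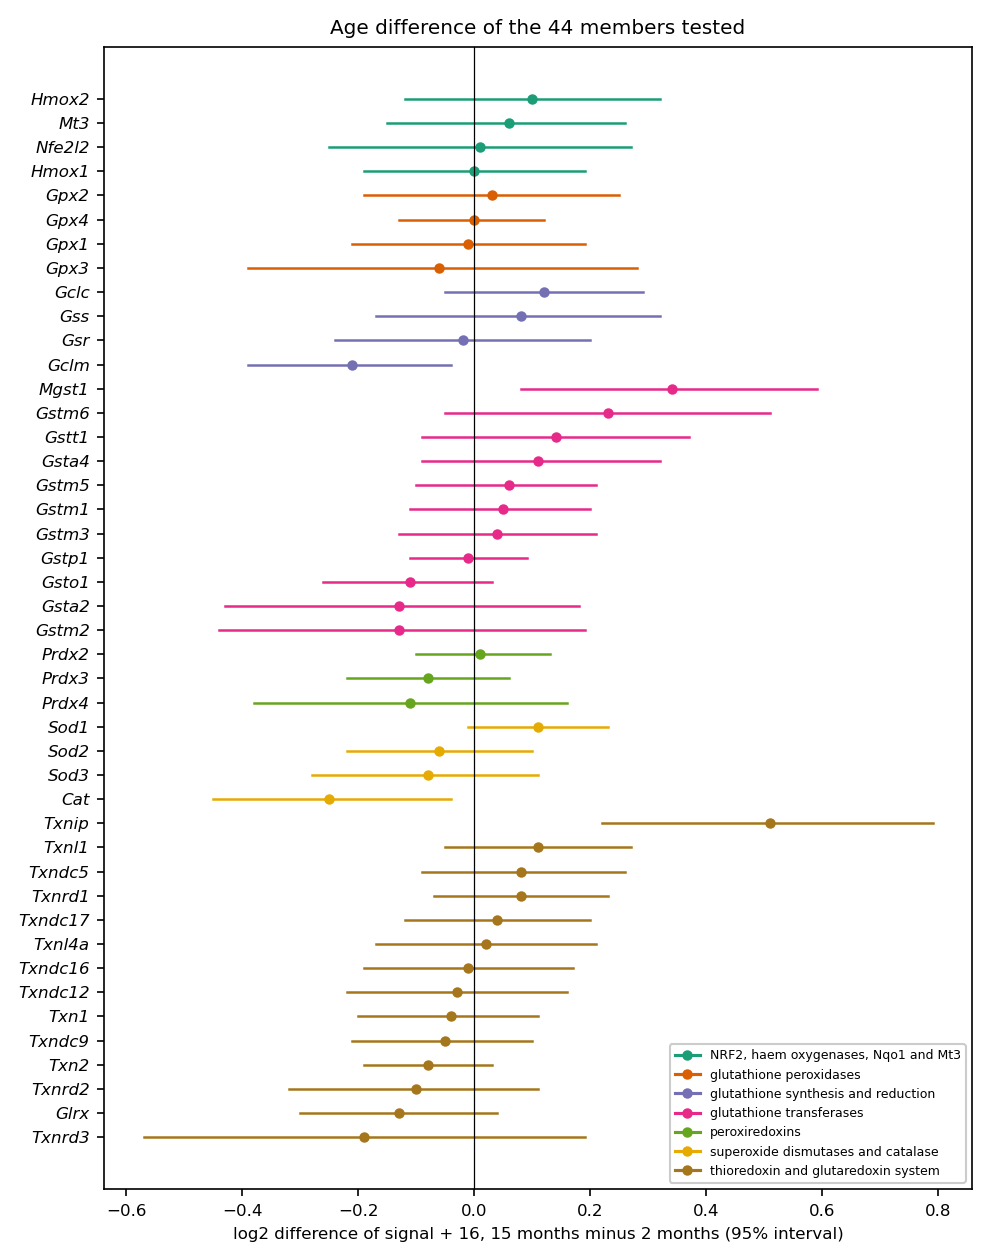
Log2 difference of signal + 16 between 15-month (n = 14) and 2-month (n = 9) mice for the 44 members tested, with points for estimates and lines for 95% intervals, coloured by class. Most points lie close to 0, and the intervals of Txnip, Mgst1, Cat and Gclm do not include 0.

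Arrays of the ages were alike in scale: the trimmed mean was 500.3 on each, and neither the median signal (154.3 to 187.6), the 25th percentile nor the 99th differed between the ages (exact permutation p = 0.346, 0.426 and 0.371). The array of 15-month replicate 13 had the highest 25th percentile, 53.4. Hippocampal and neuronal markers were present at both ages, with mean log2 levels of 10.24 and 11.08 at 15 months and 10.28 and 11.12 at 2 months. In exact permutation tests over 9 cell type lists, the mean log2 level of microglial markers differed by 0.30 (adjusted p = 4.41e-05) and that of astrocyte markers by 0.16 (adjusted p = 0.0205, or 0.0578 without 2-month replicate 1), both higher at 15 months. Of 11 microglial markers tested 11 had differences above 0 and 5 passed in limma. Csf1r, Cx3cr1 and Cd68 had log2 differences of only 0.01, 0.01 and 0.02. Summed signals of the microglial list were 9650 to 12127 at 15 months and 7496 to 9722 at 2 months. Of 8 astrocyte markers tested 7 had differences above 0 and 1 passed, with summed signals of 19554 to 32745 at 15 months and 21390 to 26740 at 2 months. The other 7 lists did not pass. Among them, choroid plexus markers varied widely between mice, with summed signals of 415 to 11662 at 15 months and 271 to 10649 at 2 months. Their mean log2 level differed by 0.59 (exact permutation, adjusted p = 0.434). The part of the listed cell types in the values below was not tested. In bulk tissue a change in the number of cells of a type and a change in RNA per cell cannot be told apart.

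Txnip had the largest difference of any member by its brightest probe set, and its probe sets disagreed. It encodes the thioredoxin-interacting protein, an arrestin-like protein that binds and inhibits thioredoxin and restrains glucose uptake, and its transcription is induced by glucose and by glucocorticoids. By its brighter probe set the Txnip signal was 337, 481 and 827 (lowest, median and highest) at 15 months and 257, 319.8 and 455 at 2 months. At 15 months 8 of 14 mice lay above every 2-month mouse, and the other 6 within the 2-month range. The mean was 505 ± 152 at 15 months (SD, n = 14) and 341 ± 59.7 at 2 months (SD, n = 9), a 1.42-fold difference (95% interval 1.17 to 1.73). The log2 difference of 0.51 ± 0.14 (SE) had an unadjusted p of 0.00106 and did not pass limma's adjustment over all probe sets (adjusted p = 0.117). It passed with each array's 25th percentile in the model (0.58, limma adjusted p = 0.022), and it was 0.45 (limma adjusted p = 0.122) without 15-month replicate 13.

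The dimmer Txnip probe set was at 145, 183 and 283 (lowest, median and highest) at 15 months and at 153, 219.8 and 257 at 2 months. Its log2 difference of -0.17 ± 0.11 (SE; limma adjusted p = 0.545) ran the other way. The mean of both probe sets gave 0.17 (limma adjusted p = 0.539). The suffix of the brighter set marks probes that may be shared with related sequences.

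Among 15-month mice Txnip was high where Sgk1 was high. Sgk1, a kinase gene induced by glucocorticoids, had signals of 2282 to 3277 in 15-month replicates 1, 6, 7, 10, 11, 13 and 14 and of 1307 to 1744 in the other 7, with no mouse between these ranges. Txnip by its brighter probe set was at 500.5 to 827 in those 7 replicates and at 337 to 462 in the other 7 of 15 months, beside 257 to 455 at 2 months, where Sgk1 was at 779 to 1281. Over all mice, taken as deviations from the mean of their age, the pair passed its test, with r and rho of 0.73 (n = 23 mice, permutation p = 9.00e-04 and 0.00101, adjusted p = 0.0036 and 0.00404 over 4 pairs), r of 0.79 within 15 months, and r of 0.70 without the 2 mice farthest from the median of Sgk1. Because the 15-month mice form separate ranges of Sgk1, r was also taken within each range, a split made after the values were seen. With 7 to 9 mice a set, no relation passed there: Pearson's r was -0.12 in the higher range (Spearman's rho -0.54), -0.64 in the lower (rho -0.68) and 0.39 at 2 months (rho 0.62), with exact permutation p of 0.81, 0.142 and 0.303 for r and 0.236, 0.11 and 0.0857 for rho, and adjusted p of 0.426 or more for r and 0.164 or more for rho over the 3 sets. Without the 2 mice farthest from the median of Sgk1, r was -0.45, -0.26 and 0.59 in these sets. The dimmer Txnip probe set spanned 154 to 283 in the higher range of Sgk1 and 145 to 214 in the lower one, so its values overlapped. The overlap came from single mice. In the higher range all but 15-month replicate 14 (154) were at 191 or above. In the lower range all but 15-month replicate 5 (214) were at 176 or below. The dimmer set was not tested against Sgk1.

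**Figure D2:**
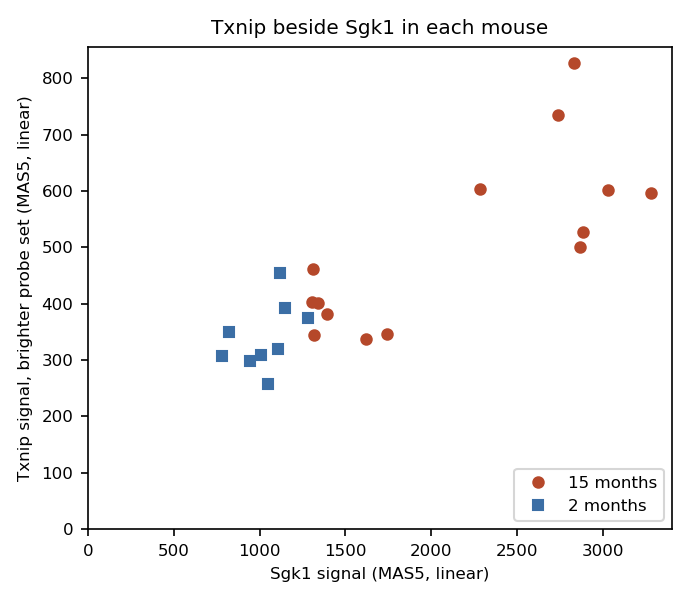
Signal of the brighter Txnip probe set (y axis) against that of Sgk1 (x axis) in each mouse, both MAS5 signals on linear axes, circles for 15 months (n = 14) and squares for 2 months (n = 9). The 7 mice of 15 months with Sgk1 at 2282 or above have Txnip at 500.5 to 827, and all other mice are at 462 or below.

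The enzymes of the thioredoxin system itself lay close together at the ages. Of 14 tested members of the thioredoxin and glutaredoxin families 6 had log2 differences above 0 and 8 below, with a median of -0.02 and none past the test. Txn1, cytosolic thioredoxin, was at 2072, 2471 and 2840 (lowest, median, highest) at 15 months and at 1911, 2539 and 3063 at 2 months, so the young mice enclosed the older ones. Its log2 difference was -0.04, with an interval of -0.20 to 0.11. Txn2, the mitochondrial thioredoxin, was at 1884 ± 173 at 15 months and 1984 ± 126 at 2 months, with a difference of -0.08 ± 0.05 (SE; limma adjusted p = 0.581), and 5 of 14 mice of 15 months were below every 2-month mouse.

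The thioredoxin reductases, which pass electrons from NADPH to thioredoxin, did not pass either. Txnrd1, the cytosolic form, had a log2 difference of 0.08 (549 ± 61.5 at 15 months and 519.6 ± 63.8 at 2 months), and Txnrd2, the mitochondrial form, one of -0.10 (152 ± 17.3 at 15 months and 166 ± 37.3 at 2 months). Txnrd3, a form with a fused glutaredoxin domain best known from testis, was measured by a probe set whose suffix marks relaxed rules of probe choice. Txnrd3 ranged from 629 to 2126 at 15 months and from 670.3 to 1728 at 2 months. Its log2 difference was -0.19 ± 0.18, and the mean of its probe sets gave -0.45 (limma adjusted p = 0.364). Glrx, glutaredoxin, which removes glutathione from protein thiols, gave 517, 693 and 844 at 15 months and 589, 757 and 974 at 2 months (-0.13 ± 0.08, SE; limma adjusted p = 0.538). Txnl1, a thioredoxin-like protein of the proteasome, was at 544 ± 59 at 15 months and 503 ± 64.3 at 2 months, with 12 of 14 mice above the 2-month mean and a difference of 0.11 ± 0.08 (limma adjusted p = 0.563). The other members, Txndc5, Txndc9, Txndc12, Txndc16, Txndc17 and Txnl4a, had differences between -0.05 and 0.08. Txnl4a carries a thioredoxin fold but works in the spliceosome.

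Catalase and the superoxide dismutases also gave no call. Cat, the peroxisomal enzyme that splits hydrogen peroxide, was at 336, 568 and 731 (lowest, median, highest) at 15 months and at 514, 694 and 757 at 2 months by its brighter probe set. The ranges overlapped, with 2 of 14 mice of 15 months below every 2-month mouse and 2 above the 2-month mean. The log2 difference was -0.25 ± 0.10 (SE; interval -0.45 to -0.04, unadjusted p = 0.0194, limma adjusted p = 0.303). The dimmer Cat probe set showed no such difference, at 190.4 ± 35.4 at 15 months and 190.4 ± 35.9 at 2 months (0.00 ± 0.11). The brighter set is one whose suffix marks probes of a sequence family, and the mean of both sets gave -0.12. Cat is abundant in red blood cells, and the haemoglobin gene Hba-a1 averaged 3204 ± 720.1 at 15 months and 2909 ± 562 at 2 months (0.13 ± 0.11, log2). The other haemoglobin gene tested, Hbb-b2, averaged 387 ± 87.1 at 15 months and 386 ± 56.2 at 2 months (-0.02 ± 0.11). The part of red blood cells in the Cat value was not tested.

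Sod1, the cytosolic copper-zinc dismutase, was at 4136, 4886 and 5453 at 15 months and at 3626, 4661 and 5023 at 2 months. At 15 months 4 of 14 mice were above every 2-month mouse and 10 above the 2-month mean, with a log2 difference of 0.11 ± 0.06 (SE; interval -0.01 to 0.23, limma adjusted p = 0.461). Sod2, the manganese enzyme of mitochondria, was at 245, 291 and 341 at 15 months and at 262, 296 and 412 at 2 months. Its difference was -0.06 ± 0.08 (limma adjusted p = 0.782). Sod3, the extracellular form, was at 450.2 ± 76.3 at 15 months and 477 ± 70.6 at 2 months (-0.08 ± 0.09, limma adjusted p = 0.75).

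**Figure D3:**
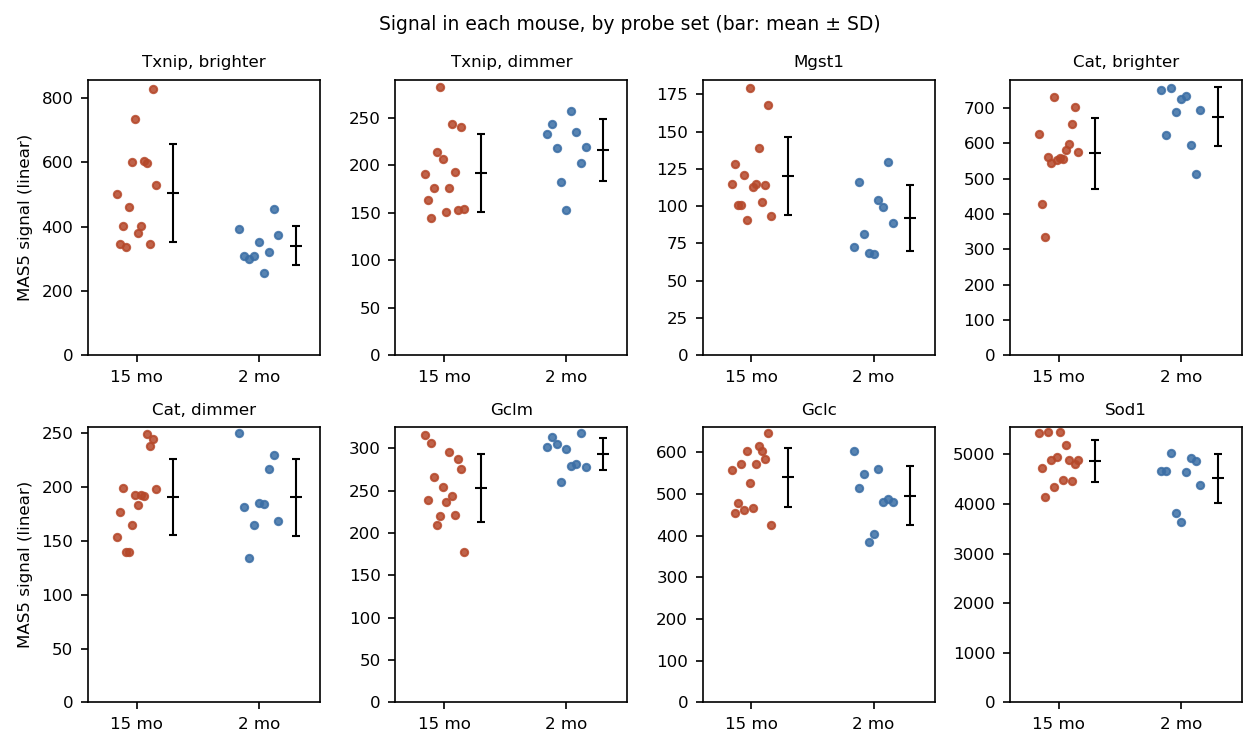
MAS5 signal on a linear axis from 0 for each mouse, 15 months (n = 14) left and 2 months (n = 9) right, with mean ± SD, for the probe sets of Txnip, Mgst1, Cat, Gclm, Gclc and Sod1. The brighter sets have means of 505 at 15 months and 341 at 2 months for Txnip and of 572 at 15 months and 676 at 2 months for Cat. The dimmer sets have 192 at 15 months and 216 at 2 months for Txnip and 190.4 at both ages for Cat, and in every panel the ages overlap.

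Gclm and Gclc, the subunits of glutamate-cysteine ligase, had differences of opposite sign. Gclm encodes the modifier subunit of this rate-limiting enzyme of glutathione synthesis, and its signal was 178, 249 and 316 (lowest, median, highest) at 15 months and 260.4, 299.8 and 318 at 2 months. At 15 months 8 of 14 mice lay below every 2-month mouse and none above, and the SD of the log2 signal was 0.22 at 15 months and 0.09 at 2 months. The log2 difference was -0.21 ± 0.09 (SE; interval -0.39 to -0.04, unadjusted p = 0.0198, limma adjusted p = 0.304). Gclc, the catalytic subunit, was at 426, 564 and 647 at 15 months and 385, 488 and 602 at 2 months. It had 3 of 14 mice of 15 months above every 2-month mouse and a difference of 0.12 ± 0.08 (interval -0.05 to 0.29, limma adjusted p = 0.569).

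Gss, glutathione synthetase, was at 439.5, 583 and 757 at 15 months and 282, 621 and 708 at 2 months, with the lowest value in 2-month replicate 1. Its log2 difference of 0.08 ± 0.12 (limma adjusted p = 0.823) was -0.04 without that mouse. Gsr, glutathione reductase, averaged 475 ± 107 at 15 months and 475 ± 61 at 2 months (-0.02 ± 0.11, limma adjusted p = 0.953), and 5 of 14 mice of 15 months were below every 2-month mouse while 1 was above.

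Over the mice, taken as deviations from the mean of their age, none of 3 pairs of members chosen by biochemistry varied together past the test. For Gclc with Gclm r was 0.38 and rho 0.31 (n = 23 mice, permutation p = 0.0687 and 0.143, adjusted p = 0.137 and 0.286 over 4 pairs computed, Txnip with Sgk1 being the other), with r of 0.41 within 15 months, 0.43 within 2 months and 0.13 without the 2 mice farthest from the median of Gclc. For Sod1 with Cat r was 0.06 and rho -0.10 (permutation p = 0.779 and 0.647, adjusted p = 0.779 and 0.647), with r of 0.27 within 15 months and -0.31 within 2 months and 0.16 without the 2 farthest mice. For Gpx1 with Gsr r was 0.11 and rho 0.24 (permutation p = 0.65 and 0.281, adjusted p = 0.779 and 0.374), with r of 0.16 within 15 months and -0.09 within 2 months and 0.25 without the 2 farthest mice.

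The glutathione peroxidases and peroxiredoxins, which remove hydrogen and lipid peroxides, likewise differed little. Of 4 tested glutathione peroxidases none had an unadjusted p under 0.05, and their log2 differences lay between -0.06 and 0.03. Gpx4, which reduces lipid peroxides in membranes and guards against ferroptosis, was at 915, 1012 and 1243 at 15 months and 909.9, 1037 and 1200 at 2 months. Its difference was 0.00 ± 0.06 (SE), with an interval of -0.13 to 0.12. Gpx1, the common cytosolic form, was at 347, 482 and 789 at 15 months and 398, 501 and 594 at 2 months, with a difference of -0.01 ± 0.10 (limma adjusted p = 0.976). Gpx3, the secreted form, ranged from 65.4 to 277 at 15 months and from 129 to 289.6 at 2 months, among the widest spreads of the members (SD of the log2 signal 0.42 at 15 months and 0.37 at 2 months).

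Of the peroxiredoxins, Prdx2, a cytosolic form abundant in neurons and red cells, was at 5036 ± 484 at 15 months and 4978 ± 363 at 2 months (0.01 ± 0.06). Prdx3, the mitochondrial form, was at 1711 ± 185 at 15 months and 1808 ± 206 at 2 months (-0.08 ± 0.07), and Prdx4, of the endoplasmic reticulum, at 173 ± 38.2 at 15 months and 188 ± 48.3 at 2 months (-0.11 ± 0.13). None passed, the lowest limma adjusted p being 0.672.

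Glutathione transferases couple glutathione to reactive electrophiles, and of 11 tested 7 had log2 differences above 0 and 4 below (median 0.05), none past the test. Mgst1, a membrane-bound transferase with peroxidase activity, had the largest. Its signal was 90.5, 114 and 179 (lowest, median, highest) at 15 months and 67.7, 88.7 and 129.5 at 2 months, with 13 of 14 mice of 15 months above the 2-month mean and 3 above every 2-month mouse. The log2 difference was 0.34 ± 0.12 (SE), or 1.26-fold with an interval of 1.06 to 1.51 (unadjusted p = 0.0119, limma adjusted p = 0.258). Its mean signal is close to the filter of 91.7, where signals are least precise. Gstm6, of the mu class, was at 95.4, 162 and 193 at 15 months and 65.2, 124 and 188 at 2 months (0.23 ± 0.14, limma adjusted p = 0.508), and its dimmer probe set gave 0.03. Gsto1, of the omega class, which also reduces dehydroascorbate, was at 543, 763 and 819 at 15 months and 669, 782 and 939.9 at 2 months (-0.11 ± 0.07, limma adjusted p = 0.521), with 4 of 14 mice of 15 months below every 2-month mouse. Gstt1, of the theta class, was at 228 ± 39.7 at 15 months and 206 ± 47.5 at 2 months (0.14 ± 0.11, limma adjusted p = 0.635).

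The abundant mu-class transferases Gstm5, Gstm1 and Gstm3 were measured by probe sets of a sequence family, so that paralogues may share their signals. Gstm5 had the brightest set of all members, at 8865, 12642 and 14017 at 15 months and 9708, 12293 and 13111 at 2 months, and its log2 difference was 0.06 ± 0.08 (SE; limma adjusted p = 0.793). Its other tested sets gave 0.11 ± 0.06, 0.13 ± 0.15 and, in a set with relaxed rules of probe choice, -0.86 ± 0.29 (unadjusted p = 0.00618, limma adjusted p = 0.214). The mean of its probe sets gave -0.14. The set with relaxed rules had the lowest estimate of the 7453 probe sets tested. Its signals were 64.8, 208 and 506 at 15 months and 173, 426 and 478 at 2 months. Gstm1, abundant in astrocytes, was at 9866 ± 1327 at 15 months and 9510 ± 970.5 at 2 months (0.05 ± 0.08), and Gstm3 at 1115 ± 153 at 15 months and 1084 ± 152 at 2 months (0.04 ± 0.08). Gstm2, by a set with relaxed rules, ranged from 365 to 869 at 15 months and from 339 to 941 at 2 months (-0.13 ± 0.15). The mean of the Gstm2 probe sets gave 0.16. Gstp1, of the pi class, was among the members that varied least between mice, at 5038 ± 401 at 15 months and 5062 ± 235 at 2 months (-0.01 ± 0.05). Gsta2 and Gsta4, of the alpha class, had differences of -0.13 and 0.11. Over the whole set of members, 10 further probe sets were tested beside the brightest, and 5 of these had a difference of the opposite sign.

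Nfe2l2, the gene of NRF2 itself, was at 124, 241 and 325 (lowest, median, highest) at 15 months and 166, 248 and 287 at 2 months. Its log2 difference was 0.01 ± 0.13 (SE; interval -0.25 to 0.27). Hmox1, the inducible haem oxygenase and an NRF2 target, was at 566, 681 and 936 at 15 months and 519, 727 and 865 at 2 months, with a difference of 0.00 ± 0.09 (interval -0.19 to 0.19). Hmox2, the constitutive form of neurons, was at 269.7 ± 53 at 15 months and 249 ± 43.2 at 2 months (0.10 ± 0.11). Mt3, the brain metallothionein that binds zinc and copper, was at 6371, 9816 and 12156 at 15 months and 6528, 9477 and 10326 at 2 months. At 15 months 5 of 14 mice were above every 2-month mouse and 1 below, and the difference was 0.06 ± 0.10 (limma adjusted p = 0.842).

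Nqo1, an NRF2-induced quinone reductase, was 1 of 6 members too dim to be tested, at 61.3 ± 18.4 at 15 months and 68.1 ± 17.2 at 2 months. The others were Gpx5, Gpx7, Gsta1, Gsta3 and Gstt2, with means between 4.54 and 67.6 at 15 months and between 5.29 and 57.8 at 2 months, Gsta1 being the dimmest.

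Members varied between mice about as much as other genes. The median SD of the log2 signal over the 44 members was 0.21 at 15 months and 0.20 at 2 months. Over all probe sets tested it was 0.23 at 15 months and 0.21 at 2 months. The SD was larger at 15 months in 23 of the 44 members, beside 4341 of all 7453 probe sets tested. Txnrd3, Gpx3 and Txnip had the highest SDs at 15 months (0.46, 0.42 and 0.41), and Txnrd3, Gstm2 and Gss at 2 months (0.48, 0.45 and 0.39). For Txnip the SD at 2 months was 0.24. Gstp1 had the lowest at both ages, 0.11 at 15 months and 0.07 at 2 months.

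**Figure D4:**
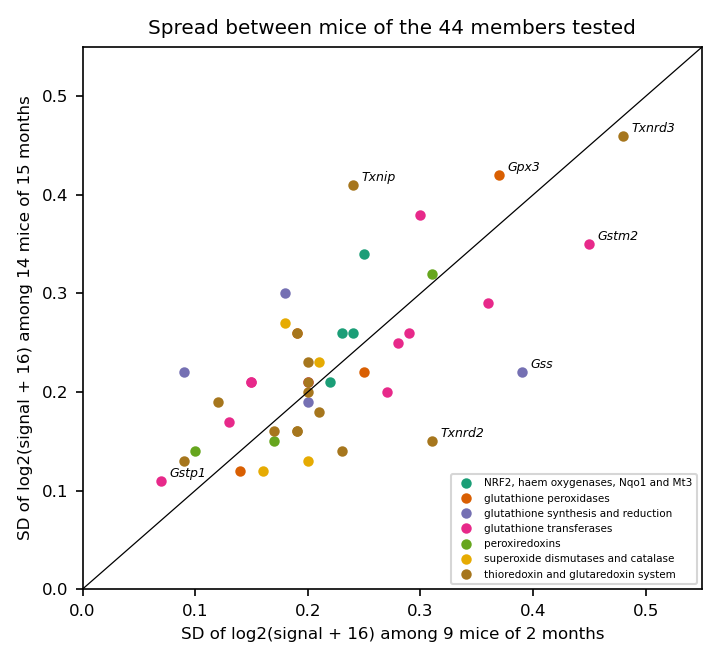
SD of log2(signal + 16) of the 44 members among 15-month mice (y axis, n = 14) against that among 2-month mice (x axis, n = 9), coloured by class, with the line of equal SD. Txnip lies above the line (0.41 at 15 months, 0.24 at 2 months), and Gss (0.22 at 15 months, 0.39 at 2 months) and Txnrd2 (0.15 at 15 months, 0.31 at 2 months) lie below it.

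Genes next to this pathway, taken in 4 lists, gave no call either. At an unadjusted p under 0.05 the share over all probe sets tested was 12.4%, and each list's share is given for comparison. Among 14 genes of glutathione and NADPH metabolism 0 rose and 0 fell in limma, with a median log2 difference of -0.03. An unadjusted p under 0.05 was found for 1 (7.14%). That gene was Ggct, which cleaves gamma-glutamyl amino acids, at 389.6 ± 55.3 at 15 months and 459 ± 35.4 at 2 months (-0.24 ± 0.08, limma adjusted p = 0.214). Among 15 genes that regulate NRF2 or are induced by it 0 passed, with a median of 0.01. At an unadjusted p under 0.05, 3 were higher and 1 lower (26.7%). The lowest p was that of Ephx1, microsomal epoxide hydrolase, at 356 ± 130.3 at 15 months and 207 ± 132 at 2 months (0.82 ± 0.28, limma adjusted p = 0.236).

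Among 13 genes of metallothioneins, selenoproteins and metal handling 0 passed (median 0.04). At an unadjusted p under 0.05, 4 were higher and 1 lower (38.5%, beside 12.4% of all probe sets tested). Mt1, a metallothionein induced by metals and glucocorticoids, was at 9915 ± 1550 at 15 months and 8025 ± 584 at 2 months, above the 2-month mean in 12 of 14 mice (0.29 ± 0.08, limma adjusted p = 0.131). Among 8 sources of superoxide and peroxide 0 passed, 1 had an unadjusted p under 0.05 (12.5%) and the median was 0.00. That gene was Nos1, neuronal nitric oxide synthase, at 89.6 ± 40.6 at 15 months and 125 ± 36.1 at 2 months (-0.49 ± 0.22, limma adjusted p = 0.372).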

How the data were processed

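Total RNA of the whole hippocampus of 23 mice was hybridised to 1-colour Affymetrix arrays, per the labels. The deposited intensities are linear MAS5 signals, per the submitters' processing notes, which name neither the version nor the settings used by the authors. The trimmed mean (2% off each end) of 500.3 on every array shows a common scaling, so no further normalisation was applied. Groups are the ages in the labels, and replicate numbers only name mice. Each mouse is a biological replicate, per the series' design text.

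Gene symbols came from the array's platform table: of 12422 probe sets that are no controls 10833 had 1 symbol, 396 several and 1193 none. The 50 members had 65 probe sets, and 4 probe sets with several symbols, 1 of them matching the prefixes of the rule, were not used. Signals were taken as log2(signal + 16). Probe sets were tested where the mean log2 value was above the 40th percentile, a signal of 91.7. Ages were compared with limma 3.58.1 in R 4.3.3 (eBayes with trend and robust variance, two-sided, Benjamini-Hochberg over 7453 probe sets), after a check on simulated data. Marker lists were compared by exact two-sided permutation over all 817190 regroupings, and pairs of genes by 100000 two-sided permutations within age, adjusted over 4 pairs; Txn1 with Prdx1, also chosen, had no probe set with 1 symbol for Prdx1. Python 3.11.15, numpy 2.4.6, scipy 1.17.1, pandas 2.3.3 and matplotlib 3.10.9 were used.

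Members and lists were chosen with earlier results of these data known. Full values are given for the 12 tested members of lowest p, the brightest and dimmest, the 3 of highest SD in each age, and Sod1, Sod2, Cat, Gpx1, Gpx4, Gclc, Gclm, Gsr, Nfe2l2, Hmox1, Nqo1, Txnip and Mt3; other members are given more briefly. For neighbouring lists the gene of lowest p is named. Alternatives changed the pseudocount, filter, normalisation, variance model, test, probe set rule, covariates and arrays. Prdx6, also in that rule, was not analysed here, nor were detection calls. Promoters are from RefSeq (GRCm38.p6), matched by gene ID for 42 of 50 members.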

Additional observations from a re-analysis of the deposited data

Results flagged for a closer look

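Single mice stood apart from the others of 2 months in 6 of the 54 tested probe sets of members (11.1%), by the gap of the lowest or highest value to its neighbour, beside 628 of all 7453 probe sets tested (8.43%). Chance alone gives about 1 in 20, and the members' share is close to that of all probe sets. Txndc16 was at 769 in 2-month replicate 5, against 1102 to 1265 in the other 8 mice, and Txndc17 at 259 in replicate 3, against 354 to 410.1. Replicate 2 was lowest for both Gstm6 (65.2, against 120.1 to 188) and Txnl1 (361, against 489.7 to 594). Gss was at 282 in replicate 1, against 496 to 708, and its dimmer probe set at 38 in replicate 4, against 119.6 to 331, so that a different mouse was low in each set. All 6 were low values, as were 483 of those over all probe sets, on a scale that widens gaps at low signals. The 15-month group is too large for this rule and was not examined.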

How the results depend on the processing

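Of 34 distinct alternatives, 23 of which left out 1 mouse each, 33 called 0 members (the array that stands apart is 15-month replicate 13, left out among these 23); with the arrays' 25th percentiles as a covariate 1 was called, Txnip. Members at an unadjusted p under 0.05 were 2 with the 60th-percentile filter, which leaves 31 members tested, between 3 and 5 over the settings that kept all mice or left out several, and between 4 and 6 with 1 mouse left out. The members' median log2 difference stayed between -0.01 and 0.02. Txnip ranged from 0.45 to 0.56 with 1 mouse left out and from 0.17 (mean of its probe sets) to 0.62 (without the 4 arrays of lowest 99th percentile, adjusted p = 0.0664). Over all alternatives Mgst1 lay between 0.24 and 0.44, Cat between -0.29 and -0.12, and Gclm between -0.24 and -0.18, never past the test. The astrocyte list lay between 0.13 and 0.18 with 1 mouse left out. The correlation of Txnip with Sgk1 over all mice, 0.73, lay between 0.72 and 0.74 over 4 alternatives (adjusted p = 0.00316 to 0.00496), and within ranges of Sgk1, a split chosen after seeing the data, it was -0.12, -0.64 and 0.39. The 4 alternatives did not split the mice by range, so their narrow span says nothing of r within a range. In each 15-month range r was below 0. The sets of the split hold fewer mice and a narrower span of Sgk1. The pathway lists gave 0 calls also with no filter. No paired analysis was possible because the labels give no number that the ages share. Precision is limited by the number of arrays, most of all for signals near the filter.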

Other observations

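Some dimmer probe sets of members lay below the filter and were not tested. The dimmer set of Gstm2 was at 76.3 ± 24.2 at 15 months and 53.7 ± 22.6 at 2 months, with 12 of 14 mice of 15 months above the 2-month mean, while the brighter set had a log2 difference of -0.13. The dimmer set of Txnrd3 was at 29 ± 22 at 15 months and 64.4 ± 47.9 at 2 months, and that of Gpx5, a peroxidase of the epididymis, at 44.8 ± 19.7 at 15 months and 61.4 ± 17.1 at 2 months. In the list of metal handling, Tfrc, the transferrin receptor of cellular iron uptake, was at 1898 ± 423 at 15 months and 2486 ± 401 at 2 months, above the 2-month mean in 1 of 14 mice (log2 difference -0.41 ± 0.12, limma adjusted p = 0.153). It was chosen after its value was seen.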
